A study of Mus musculus with 12 samples.

Results

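Genes that make, activate or sense transforming growth factor beta (TGF-beta) were followed in B cells sorted by interleukin 10 (IL-10) secretion. The 10 genes were Tgfb1, Tgfb2, Tgfb3, Furin, Lrrc32, Itgav, Itgb8, Tgfbr1, Tgfbr2 and Smad7, of 34821 gene names on the array. They were taken by name for their role in the pathway, with every probe that the array's annotation gave them, which came to 16 of 55681 probes. For 13 probes of 8 genes the scanner marked the signal as well above background on 3 or more of 12 arrays, and these were among the 37648 probes tested on the same condition. The other 3 probes, the only probe of Itgb8, the only probe of Smad7 and 1 of 2 probes of Tgfb2, were not well above background on any array.

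The series held 12 microarrays read in 1 colour, of spleen B cells from female Balb/c mice, in 4 groups of 3. Mice allergic to house dust mite (HDM) and control mice each gave a group of IL-10+ and a group of IL-10- cells. All cells, controls included, had been cultured with a CD40 agonist, with lipopolysaccharide (LPS) added for the last 5 hours, so none of the groups was unstimulated. An assay that captures secreted IL-10 on the cell surface marked the cells for sorting, and their cDNA was amplified by PCR before labelling. Whether the replicates of a group came from different animals or cultures is not given in the labels. P-values therefore measure only the spread between these samples, which may be technical.

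TGF-beta is made as a precursor that furin cuts, and the released growth factor stays bound to its own propeptide in a latent complex. GARP, the product of Lrrc32, holds that complex on the cell surface, best known in regulatory T cells and platelets, and integrins made of the alpha-v chain (Itgav) with a beta chain such as that of Itgb8 free the active ligand. The ligand binds the type 2 receptor (Tgfbr2), which recruits the type 1 receptor (Tgfbr1) and so activates SMAD proteins, and Smad7 is an inhibitor that acts on the type 1 receptor. In B cells TGF-beta is known to restrain growth and to direct class switching to IgA.

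The 3 probes printed here lie in coding sequence. They are the only tested probes of Tgfb1 and of Tgfb2, and 1 of 2 tested probes of Tgfbr2. In mm9 coordinates, the Tgfb1 probe covers chr7:26489877-26489936 on the plus strand and the Tgfb2 probe covers chr1:188449333-188449392 on the minus strand. Both lie in the part of the gene that encodes the mature ligand, and the capitals mark the bases that are identical when they are aligned without gaps. The Tgfbr2 probe covers chr9:115999496-115999555 on the minus strand, and its capitals mark the stop codon with which it ends. Each is written 5′ to 3′ in the sense of the transcript.
Tgfb1 A_51_P390715: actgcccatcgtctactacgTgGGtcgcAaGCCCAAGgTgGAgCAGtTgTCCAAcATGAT
Tgfb2 A_65_P10913: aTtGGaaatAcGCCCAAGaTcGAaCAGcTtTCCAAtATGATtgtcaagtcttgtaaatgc
Tgfbr2 A_55_P2107288: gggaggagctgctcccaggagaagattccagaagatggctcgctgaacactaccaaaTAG
The ligand probes shared 28 of 41 overlapping bases (68.3%). Whether the RNA of either gene bound to the other gene's probe was not tested.

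Each level is the log2 processed signal less that of the array's 75th percentile, so that 0 is the signal of a probe at that percentile, and differences are log2 fold changes. Levels are compared only within a probe. The arrays lay on 2 slides, each with its own scan. All 6 IL-10+ arrays and IL-10- control arrays 1 and 2 were on slide 1, and IL-10- control array 3 and all 3 IL-10- HDM arrays were on slide 2, so in HDM mice the sort and the slide cannot be told apart. IL-10- control cells alone lay on both slides. Every fit with slide as a block takes its slide difference from that group, which had 1 array on slide 2. Blocked values that involve IL-10- HDM cells, the averaged sort contrast included, therefore hang on that 1 array. IL-10- HDM array 3 stood apart. Its mean correlation with the other arrays was 0.742, against 0.841 to 0.879 for the rest, and 67.7% of the tested probes were well above background on it, against 74.5% to 88.9%. Il10, the target of the sort, was at 6.44 to 7.64 in IL-10+ cells and at -5.39 to 1.14 in IL-10- cells. It was higher in IL-10+ cells by 7.58 (SE 0.84, limma, adjusted p = 0.0125), by 6.69 without that array, and by 6.95 with slide as a block (limma, adjusted p = 0.299). All 8 B cell markers examined, of which Cd22 and Ebf1 were the brightest, were well above background on at least 11 arrays.

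No member probe passed the threshold used, an adjusted p under 0.05 (Benjamini-Hochberg, with all tested probes in the adjustment). For IL-10+ against IL-10- cells, averaged over HDM and control mice, limma called 0 of 13 member probes, against 0.343% of all tested probes, and 0 of 13 had an unadjusted p under 0.05, against 9.33%. The 6 IL-10+ arrays overlapped with the 6 IL-10- arrays for all 13, while 0.94% of all probes had no overlap between them. Within HDM mice limma called 0 of 13 (0.191% of all probes), 0 of 13 were under an unadjusted 0.05 (13.1%) and 0 of 13 did not overlap (22.1%). Within control mice it called 0 of 13 (0.0159%), with 0 of 13 under an unadjusted 0.05 (4.14%) and 0 of 13 without overlap (9.6%).

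The HDM comparisons gave the same counts. In IL-10+ cells limma called 0 of 13 member probes for HDM against control mice (0.00531% of all probes), with 0 of 13 under an unadjusted 0.05 (2.2%) and 0 of 13 without overlap (9.68%). In IL-10- cells it called 0 of 13 (0.0744%), with 0 of 13 under an unadjusted 0.05 (9.39%) and 0 of 13 without overlap (12.1%). The difference of the sort contrast between HDM and control mice was called for 0 of 13 member probes and for 0% of all probes, and 0 of 13 were under an unadjusted 0.05, against 6.47%. A p that misses the threshold does not show that levels were alike, so the intervals are given with the members.

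**Figure D1:**
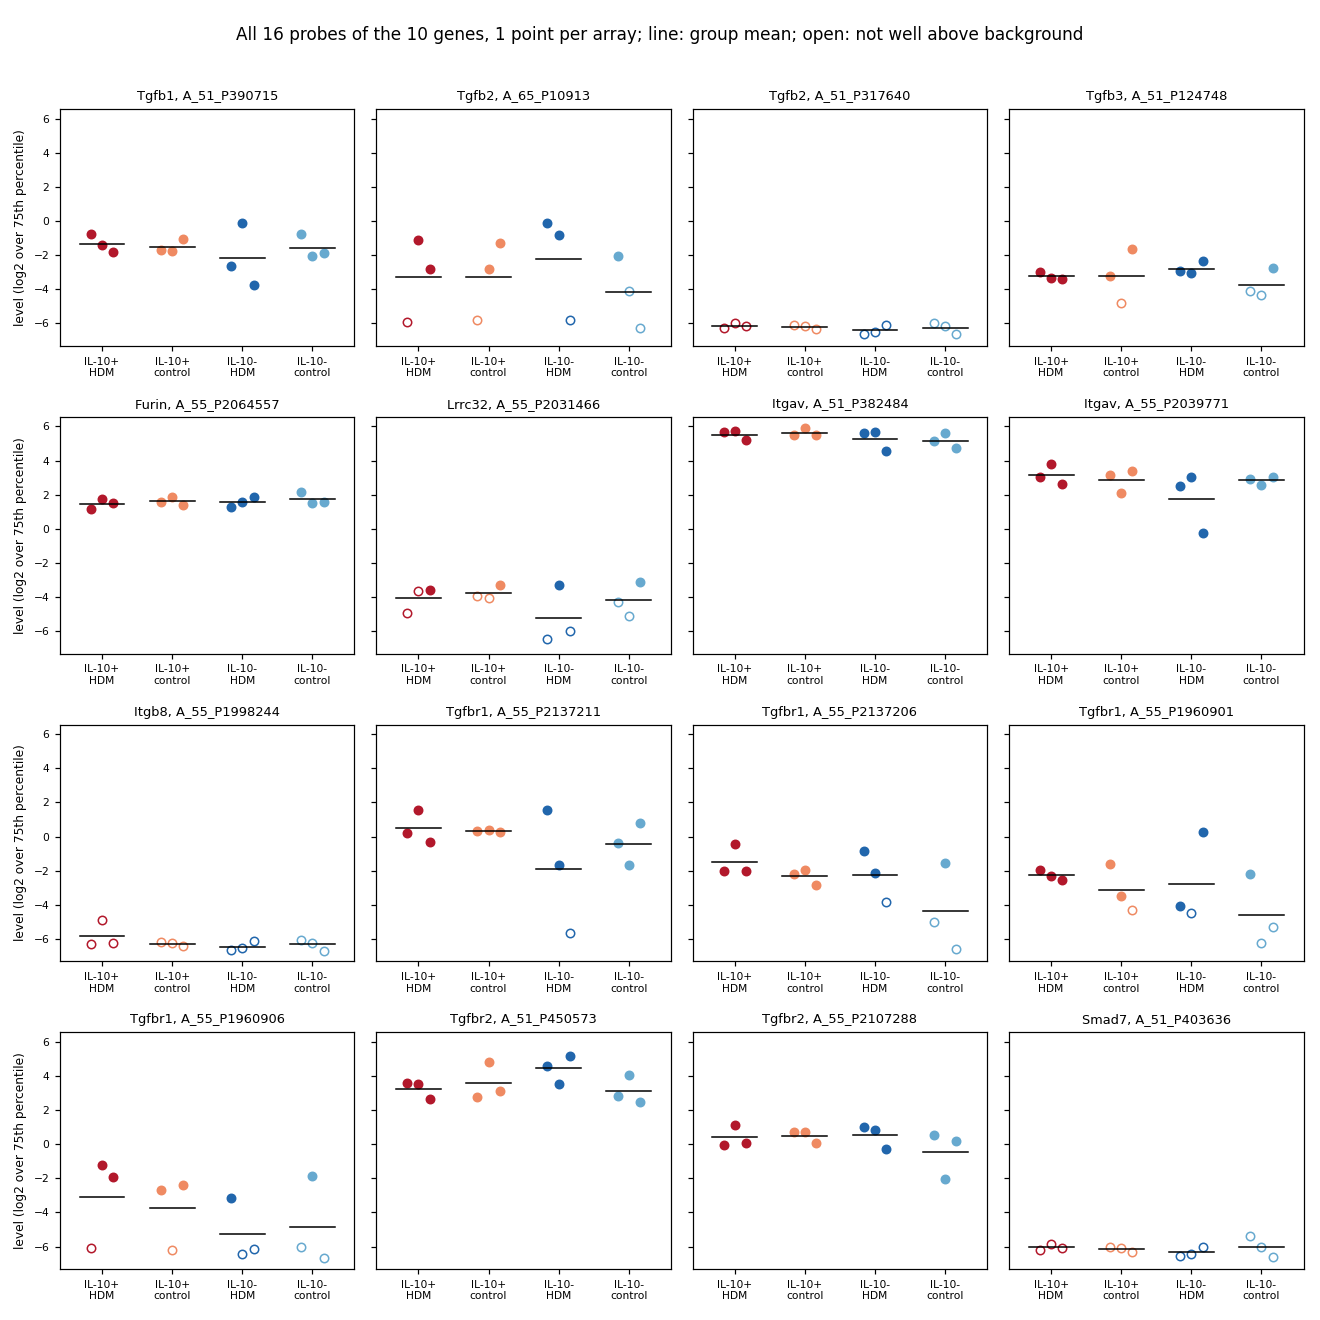
Level of each of the 16 probes on every array, as log2 of the signal over the array's 75th percentile (vertical axis), for the 4 groups (horizontal axis). Points are arrays, lines are means of 3 arrays and open points were not well above background; the probes of Itgb8 and Smad7 and the second probe of Tgfb2 are open on all 12 arrays.

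Tgfb1, the isoform best known in immune cells, was well above background on all 12 arrays. Its level was -0.78, -1.38 and -1.82 in IL-10+ HDM cells, -1.67, -1.73 and -1.07 in IL-10+ control cells, -2.64, -0.14 and -3.76 in IL-10- HDM cells, and -0.76, -2.07 and -1.84 in IL-10- control cells. The IL-10- HDM arrays held both the highest and the lowest of the 12 values, and the other groups lay between them. The group means ran, high to low, -1.32 ± 0.52 in IL-10+ HDM, -1.49 ± 0.36 in IL-10+ control, -1.56 ± 0.70 in IL-10- control and -2.18 ± 1.85 in IL-10- HDM cells (SD, n = 3 each), with no neighbours further apart than their spread. IL-10+ cells differed from IL-10- cells by 0.46 (SE 0.57, 95% interval -0.80 to 1.72, limma, adjusted p = 0.831). That difference was 0.07 without IL-10- HDM array 3, which held the lowest value, and 0.97 when array 2 of that group, which held the highest, was left out (limma, adjusted p = 0.378). In HDM mice alone it was 0.85 with all arrays and 1.87 without array 2 (limma, adjusted p = 0.198), and the averaged difference was 0.17 with slide as a block.

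Tgfb2 had a probe in the 3′ part of the coding sequence and another, at chr1:188447534-188447593, and they did not give the same picture. The coding probe was at -5.94, -1.12 and -2.82 in IL-10+ HDM cells, -5.78, -2.81 and -1.31 in IL-10+ control cells, -0.12, -0.81 and -5.81 in IL-10- HDM cells, and -2.02, -4.10 and -6.26 in IL-10- control cells. It was well above background on 7 of 12 arrays, and each group held at least 1 array where it was and at least 1 where it was not. Its within-group SD was 2.52, and 97.8% of the tested probes had a lower one. The sort difference was -0.11 with an interval of -3.01 to 2.79 (limma, adjusted p = 0.984). It was -1.0 without IL-10- HDM array 3, -2.24 with slide as a block and 0.55 with IL-10+ HDM array 1 left out. The second Tgfb2 probe stayed between -6.64 and -5.98 and was not well above background on any array.

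Tgfb3 (chr12:87397804-87397863, minus strand), the third isoform, was well above background on 9 arrays. It was at -3.01, -3.32 and -3.40 in IL-10+ HDM cells, -3.21, -4.80 and -1.63 in IL-10+ control cells, -2.95, -3.06 and -2.33 in IL-10- HDM cells, and -4.12, -4.35 and -2.77 in IL-10- control cells. All 3 arrays of each HDM group and only 3 of the 6 control arrays were well above background. The sort difference was 0.04 (SE 0.51, interval -1.10 to 1.17, limma, adjusted p = 0.986). HDM against control differed by -0.03 in IL-10+ cells (interval -1.64 to 1.58) and by 0.97 in IL-10- cells (interval -0.64 to 2.58, limma, adjusted p = 0.669). On slide 2 alone the HDM difference in IL-10- cells was -0.01, since IL-10- control array 3 lay among the HDM arrays there.

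Furin (chr7:87534082-87534141, minus strand), the protease that cuts the TGF-beta precursor, was the most evenly measured member. Its level was 1.18, 1.76 and 1.49 in IL-10+ HDM cells, 1.55, 1.88 and 1.38 in IL-10+ control cells, 1.25, 1.54 and 1.87 in IL-10- HDM cells, and 2.16, 1.51 and 1.55 in IL-10- control cells. The 12 values spanned 0.99, and the within-group SD was 0.31, with 6.96% of the tested probes lower. IL-10+ cells differed from IL-10- cells by -0.11 (SE 0.25, limma, adjusted p = 0.913). The 95% interval of that averaged difference was -0.66 to 0.44, and that of the difference within HDM mice was -0.86 to 0.70. The averaged difference was -0.30 with slide as a block and -0.42 with arrays scaled to their median. With that scaling it was -0.85 within HDM mice. The group means (SD, n = 3 each) were 1.48 ± 0.29 in IL-10+ HDM and 1.60 ± 0.25 in IL-10+ control cells. In IL-10- cells they were 1.56 ± 0.31 (HDM) and 1.74 ± 0.37 (control), and all lay within 1 SD of each other.

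Lrrc32 (chr7:105650282-105650341, plus strand), which encodes the GARP anchor of latent TGF-beta, was well above background on 4 of 12 arrays, 1 in each group. The levels were -4.94, -3.64 and -3.56 in IL-10+ HDM cells, -3.96, -4.07 and -3.30 in IL-10+ control cells, -6.46, -3.29 and -5.97 in IL-10- HDM cells, and -4.29, -5.11 and -3.09 in IL-10- control cells. The 2 lowest values were in IL-10- HDM cells, whose remaining array was among the highest of all 12. The sort difference was 0.79 (SE 0.59, interval -0.52 to 2.10, limma, adjusted p = 0.718), 1.86 with slide as a block, 0.61 without IL-10- HDM array 3 and 1.28 with array 2 of that group left out.

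Markers of regulatory T cells and platelets, the cells best known for GARP, were measured beside it. Of 4 regulatory T cell genes, Il2ra (the brightest, mean level 2.37) and Foxp3 were well above background on all 12 arrays, and Gpr83 on 1. Their list summed, on the linear scale in units of the 75th percentile, to 4.68 to 8.0 in IL-10+ HDM, 6.70 to 8.45 in IL-10+ control, 4.74 to 7.01 in IL-10- HDM and 5.99 to 8.34 in IL-10- control cells. Foxp3, Ikzf4 and Gpr83 had mean levels of -0.25, -2.15 and -5.98, so at these means the sums come mainly from Il2ra. Of 8 platelet genes, 2 (Itga2b and Treml1) were above background on all arrays, and Pf4, Ppbp and Gp5 were on none. The platelet list summed to 1.17 to 2.09 in IL-10+ HDM, 0.482 to 1.63 in IL-10+ control, 0.625 to 1.65 in IL-10- HDM and 1.43 to 2.77 in IL-10- control cells. All these ranges overlap between the sorts in HDM and in control mice, and the part of such cells in any member's level was not tested. In sorted bulk samples, fewer cells of a type and less RNA per cell cannot be told apart.

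Itgav, the alpha-v integrin chain, was well above background with both of its probes on all 12 arrays. Probe A_51_P382484 (chr2:83646133-83646192, plus strand) was at 5.65, 5.73 and 5.19 in IL-10+ HDM cells, 5.47, 5.92 and 5.48 in IL-10+ control cells, 5.6, 5.69 and 4.54 in IL-10- HDM cells, and 5.13, 5.6 and 4.73 in IL-10- control cells. The 2 lowest arrays were IL-10- ones, and the other 10 lay within the range of the IL-10+ arrays or just under it. The sort difference was 0.36 (SE 0.29, interval -0.29 to 1.01, limma, adjusted p = 0.745), and it was 0.18 without IL-10- HDM array 3 and -0.07 with slide as a block.

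The other Itgav probe, A_55_P2039771 (chr2:83643905-83643964), was at 3.03, 3.78 and 2.61 in IL-10+ HDM cells, 3.15, 2.13 and 3.37 in IL-10+ control cells, 2.50, 3.01 and -0.27 in IL-10- HDM cells, and 2.91, 2.55 and 3.05 in IL-10- control cells. IL-10- HDM array 3 lay far under the other 11. The sort difference of 0.72 (interval -0.50 to 1.93, limma, adjusted p = 0.724) was 0.21 without it, and in HDM mice 1.39 with it and 0.38 without it. Itgb8, the integrin beta chain that pairs with alpha-v to activate TGF-beta (chr12:120401278-120401337, minus strand), stayed between -6.68 and -4.89 and was not well above background on any array. That bounds its signal on these arrays and does not show that the transcript was absent.

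The type 1 receptor, Tgfbr1, had 4 probes on chromosome 4, all on the plus strand, and they disagreed in detection and in which arrays were low. Probe A_55_P2137211 (47424946 to 47425005) was at 0.22, 1.54 and -0.31 in IL-10+ HDM cells, 0.33, 0.35 and 0.28 in IL-10+ control cells, 1.56, -1.67 and -5.64 in IL-10- HDM cells, and -0.38, -1.69 and 0.77 in IL-10- control cells. The 4 lowest values were all in IL-10- cells, and IL-10- HDM cells held the highest and the lowest. The sort difference was 1.58 (SE 1.02, interval -0.70 to 3.86, limma, adjusted p = 0.678), 0.65 without IL-10- HDM array 3, 2.45 with array 1 of that group left out and 2.78 with slide as a block.

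Probe A_55_P2137206 of Tgfbr1 (47427736 to 47427795) was at -2.04, -0.45 and -2.05 in IL-10+ HDM cells, -2.19, -1.93 and -2.86 in IL-10+ control cells, -0.82, -2.16 and -3.86 in IL-10- HDM cells, and -5.02, -1.53 and -6.57 in IL-10- control cells. All 6 IL-10+ arrays and 3 of the 6 IL-10- arrays were well above background, and the 3 lowest values were IL-10- ones. The sort difference was 1.41 (SE 0.83, interval -0.45 to 3.26, limma, adjusted p = 0.648), and it turned to -0.79 with slide as a block. Between HDM and control mice it was 2.09 in IL-10- cells (limma, adjusted p = 0.598) and 4.29 on slide 2 alone, where there was 1 control array, at -6.57.

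The 2 remaining Tgfbr1 probes lie further upstream and are assigned to other transcript models than the RefSeq one. A_55_P1960901 (47395833 to 47395892) was well above background on 8 arrays and A_55_P1960906 (47374114 to 47374173) on 6. Their sort differences were 0.97 (SE 0.95, limma, adjusted p = 0.79) and 1.63 (SE 1.21, limma, adjusted p = 0.717), and with slide as a block 0.26 and -0.20. IL-10- HDM array 3 was the highest of 12 arrays for A_55_P1960901, at 0.24, and the lowest for A_55_P2137211. The within-group SDs of the 4 probes were 1.59 to 2.32, against a median of 0.92 over all tested probes.

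Tgfbr2, the ligand-binding receptor, was well above background with both probes on all arrays. Probe A_51_P450573 (chr9:115997155-115997214, minus strand) was at 3.57, 3.54 and 2.68 in IL-10+ HDM cells, 2.78, 4.82 and 3.12 in IL-10+ control cells, 4.61, 3.53 and 5.20 in IL-10- HDM cells, and 2.84, 4.04 and 2.46 in IL-10- control cells. Of the 4 group means IL-10- HDM was the highest, and the groups overlapped. Its difference between HDM and control mice in IL-10- cells had the smallest unadjusted p of all member probes in the 6 comparisons. The means were 4.45 ± 0.84 in IL-10- HDM and 3.11 ± 0.82 in IL-10- control cells (SD, n = 3 each), which differed by 1.33 (SE 0.67, interval -0.15 to 2.82, limma, adjusted p = 0.562). It was 0.96 without IL-10- HDM array 3 and 1.99 on slide 2 alone.

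The coding-sequence probe of Tgfbr2 shown above was at -0.02, 1.13 and 0.10 in IL-10+ HDM cells, 0.69, 0.74 and 0.05 in IL-10+ control cells, 1.01, 0.84 and -0.26 in IL-10- HDM cells, and 0.54, -2.07 and 0.19 in IL-10- control cells. IL-10- control array 2 lay under the other 11. HDM against control in IL-10- cells differed by 0.97 (interval -0.55 to 2.49, limma, adjusted p = 0.655), in the same direction as the other probe. For the sort the probes pointed in opposite directions, with -0.36 (SE 0.47, limma, adjusted p = 0.844) for A_51_P450573 and 0.41 (SE 0.48, limma, adjusted p = 0.826) for the coding probe. Smad7, the inhibitory SMAD, was between -6.59 and -5.36 and not well above background on any array.

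**Figure D2:**
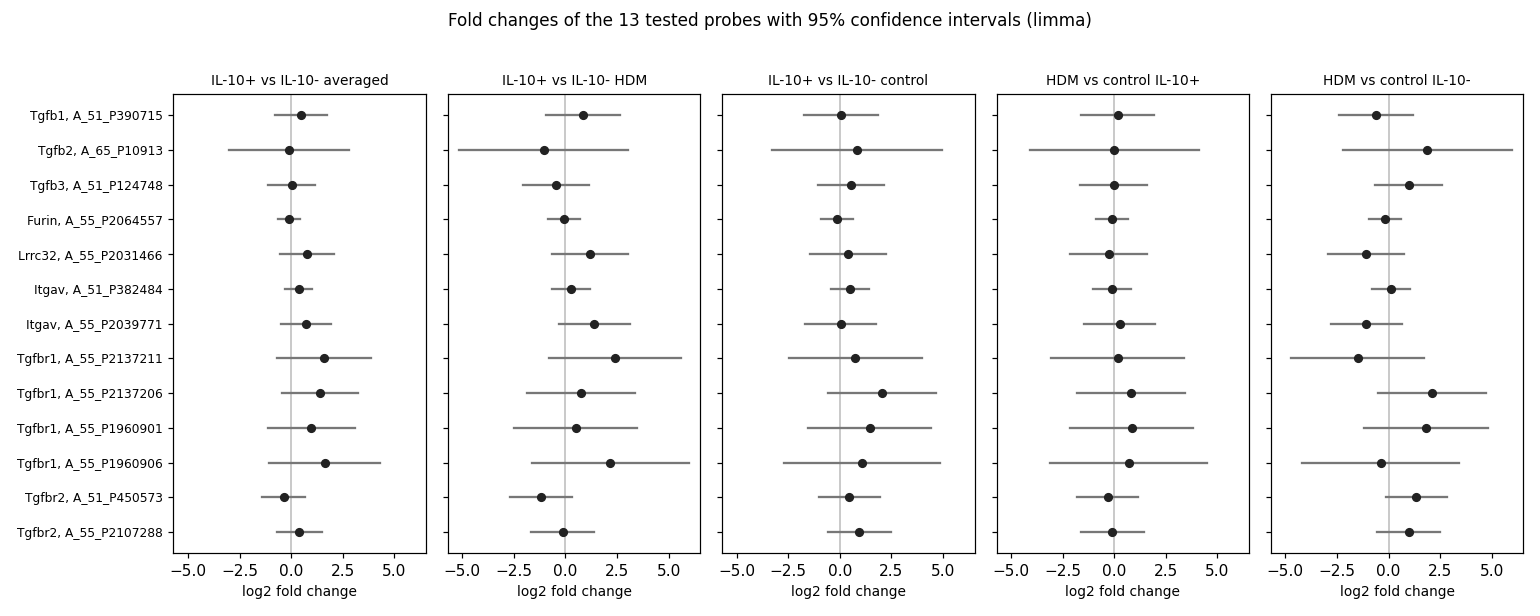
Log2 fold changes (horizontal axes) of the 13 tested member probes (rows) in 5 comparisons, with 95% confidence intervals from limma. Every interval crosses 0, from the narrow ones of Furin (-0.66 to 0.44 for the averaged sort contrast) to the wide ones of Tgfb2 (-3.01 to 2.79).

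Read over the whole list, the median difference of IL-10+ from IL-10- cells was 0.46 over the 13 member probes, with 10 above 0, against 0.06 over all tested probes, of which 54% were above 0. Within HDM mice it was 0.49 against 0.22 over all, and within control mice 0.54 against -0.03, with 8 and 12 of the 13 above 0. Of the 13 probes, 4 are of Tgfbr1 and another 4 of Itgav and Tgfbr2, so they do not count as 13 separate genes. For HDM against control mice the member median was 0.01 in IL-10+ cells and 0.12 in IL-10- cells, against 0.07 and -0.09 over all probes. Several of these medians moved with the settings. Without IL-10- HDM array 3, 10 of the 13 averaged sort differences were closer to 0 and their median was 0.21, and within HDM mice it was 0.06. For HDM against control in IL-10- cells the median was 0.38 without that array, with 10 of 13 above 0, against 7 of 13 with it, and 0.33 with slide as a block. With slide as a block the sort median was 0.17 averaged, 0.26 within control mice and -0.37 within HDM mice. With each array scaled to its median in place of its 75th percentile the member median was 0.14 averaged, -0.29 within HDM mice and 0.68 within control mice, with all 13 above 0 in the last. The median of all probes was then -0.26, -0.56 and 0.11. For HDM against control the member median was then -0.27 in IL-10+ cells and 0.76 in IL-10- cells, against -0.21 and 0.55 over all probes. Normexp background correction shrank the largest averaged sort differences. The 4 Tgfbr1 probes went from 1.58, 1.41, 0.97 and 1.63 to 0.75, 0.35, 0.15 and 0.47, and Lrrc32 from 0.79 to 0.14. Tgfb2 (-0.12), Tgfb3 (0.06) and Tgfbr2 A_51_P450573 (-0.38) moved slightly away from 0.

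**Figure D3:**
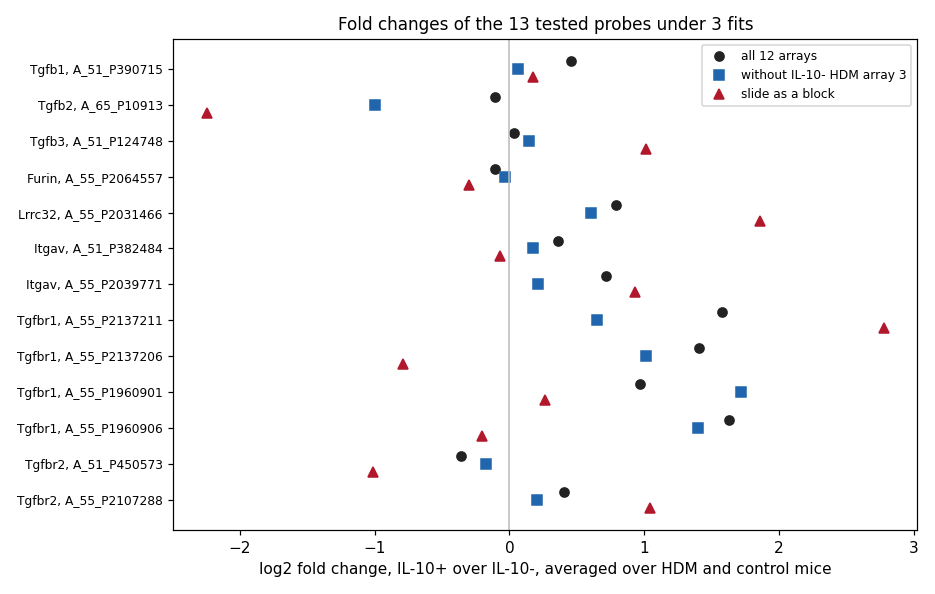
Log2 fold change of IL-10+ over IL-10- cells, averaged over HDM and control mice (horizontal axis), for each tested member probe (rows) with all 12 arrays, without IL-10- HDM array 3, and with slide as a block. Tgfbr1 A_55_P2137206 moves to -0.79 with the slide block, against 1.41 with all arrays and no block.

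The rest of the pathway was read from 4 lists of other genes. Of 24 symbols for other parts of latency and activation, 15 genes had 18 tested probes, 12 of them above 0 for IL-10+ against IL-10- cells, with a median of 0.17. Of 12 other receptors and co-receptors, 10 genes had 14 tested probes, 7 above 0, with a median of 0.04. Of 26 SMADs and their regulators, 21 genes had 37 tested probes, 22 above 0, with a median of 0.15. None of these probes was called by limma in any of the 6 comparisons, and at an unadjusted p under 0.05 in the averaged sort contrast 0 were higher and 2, 1 and 1 lower, in the order of the lists, against 2359 higher and 1152 lower of all 37648 tested probes (9.33%).

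Among the latency genes the smallest p belonged to Lrrc33 (now named Nrros, chr16:32142911-32142970, minus strand), which encodes a protein related to GARP that holds latent TGF-beta on myeloid cells and microglia. It was at 1.56, 1.06 and 0.87 in IL-10+ HDM cells, 1.56, 1.51 and 1.07 in IL-10+ control cells, 3.31, 2.49 and 4.03 in IL-10- HDM cells, and 1.48, 2.01 and 1.23 in IL-10- control cells. The 3 IL-10- HDM arrays lay above the other 9, among them the control array of the same slide. Of all tested probes, 22.1% had no overlap between the sorts in HDM mice and 12.1% between HDM and control mice in IL-10- cells. The differences did not pass the threshold: -2.11 for IL-10+ against IL-10- cells in HDM mice (SE 0.44, limma, adjusted p = 0.112) and 1.70 for HDM against control in IL-10- cells (SE 0.44, limma, adjusted p = 0.286), in the fit of all 12 arrays. Without IL-10- HDM array 3 they were -1.74 and 1.33, with slide as a block -2.63 and 2.05, and with arrays scaled to their median -2.89 and 2.34. The difference in HDM mice passed the threshold in 1 of 20 alternative settings, at -2.51 without IL-10- HDM array 2 (limma, adjusted p = 0.0447). Of 7 monocyte markers, 4 were well above background on all 12 arrays, with Itgam and Csf1r the brightest, and Ccr2 was on none. They summed to 444 to 453 in IL-10+ HDM, 386 to 513 in IL-10+ control, 385 to 517 in IL-10- HDM and 392 to 429 in IL-10- control cells, and Itgam, at a mean level of 8.73, was the main part of each sum. Of 7 dendritic cell markers, Siglech and Zbtb46 were the brightest, and Itgax and Clec9a were above background on no array. They summed to 71.3 to 73.3 in IL-10+ HDM, 61.5 to 78.6 in IL-10+ control, 78.0 to 96.2 in IL-10- HDM and 61.4 to 88.5 in IL-10- control cells. Siglech, at a mean level of 6.14, was the main part of each of these sums. In HDM mice the dendritic cell sums, and so mainly this 1 probe, were higher in all 3 IL-10- arrays than in the IL-10+ arrays, as Lrrc33 was. The part of monocytes or dendritic cells in the Lrrc33 values was not tested.

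The genes next in p in these lists overlapped between the sorts in the averaged contrast, and none of their probes was called. Ltbp4, which tethers latent TGF-beta to the matrix, had -1.12 (limma, adjusted p = 0.501). It was well above background on 7 of 12 arrays. Over the alternative settings its difference ran from -1.53 to -0.17, the latter with normexp background correction. Acvr2a, an activin receptor, had -1.15 and -1.18 with its 2 probes (limma, adjusted p = 0.53 and 0.56). Tgif1, a SMAD co-repressor, had -0.55 (limma, adjusted p = 0.501), and Fkbp1a, which binds the type 1 receptor, had 0.69 (limma, adjusted p = 0.57). Within HDM mice the IL-10+ and IL-10- arrays did not overlap for Tgif1 at -1.04 (limma, adjusted p = 0.255), Acvr2a A_66_P113760 at -2.16 (limma, adjusted p = 0.315) and Fkbp1a at 1.23 (limma, adjusted p = 0.334). For HDM against control in IL-10- cells the arrays did not overlap for Fkbp1a at -1.61 (limma, adjusted p = 0.354) and Tgif1 at 0.79 (limma, adjusted p = 0.495). In IL-10+ cells they did not overlap for Acvr2a A_52_P664656 at 1.36 (limma, adjusted p = 1). Of all tested probes, 22.1%, 12.1% and 9.68% did not overlap in these comparisons, in the order given. The probes named were picked for a small p in the averaged contrast, which includes the HDM mice.

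Of 24 symbols for genes that TGF-beta is known to regulate in various cells, 18 genes had 23 tested probes, 13 above 0, with a median of 0.09. Limma called 1 probe, of Cdkn2b, as higher in IL-10+ cells. That is to be read against 0.343% of all tested probes called. The list was chosen with earlier results of these data known, so the count is only a description. At an unadjusted p under 0.05, 4 were higher and 2 lower, against 9.33% of all tested probes, of which more were higher than lower. Some genes of this list, Tgif1 among them, are also in the SMAD list.

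Cdkn2b encodes p15INK4b, an inhibitor of cyclin-dependent kinases that TGF-beta induces in epithelial cells. Probe A_55_P1988183 (chr4:88952276-88952335, minus strand) was at 0.80, 0.59 and 0.52 in IL-10+ HDM cells, -0.31, 0.28 and -0.15 in IL-10+ control cells, -1.86, -2.06 and -1.89 in IL-10- HDM cells, and -2.39, -1.89 and -3.67 in IL-10- control cells. All 6 IL-10+ arrays lay above all 6 IL-10- arrays, and 0.94% of all tested probes had no overlap between them. The level rose in IL-10+ cells by 2.58 (SE 0.32, interval 1.88 to 3.28, limma, adjusted p = 0.0152), and was called in 12 of 12 fits that left out 1 array, at 2.33 to 2.77. It was 1.56 with slide as a block (limma, adjusted p = 0.452), 2.26 with arrays scaled to their median (limma, adjusted p = 0.111), and 2.08 among control mice on slide 1 (limma, adjusted p = 0.199), where the groups also did not overlap. In control mice 9.6% of all tested probes had no overlap between the sorts. The share for sums of markers, or for slide 1 alone, was not computed. The summed B cell markers also differed without overlap in control mice, at 95.2 to 97.4 in IL-10+ and 73.6 to 79.6 in IL-10- cells. So did those of stroma and endothelium (Pecam1 and Vwf the brightest), at 8.04 to 11.1 in IL-10+ and 4.88 to 7.56 in IL-10- cells. In HDM mice both sums overlapped, at 81.3 to 99.9 and 4.86 to 6.93 in IL-10+ cells and 81.6 to 103 and 2.91 to 5.6 in IL-10- cells. Pecam1, at a mean level of 2.54, was the main part of each stroma and endothelium sum. Col1a1 and Pdgfrb were well above background on no array. The part of B cells or of stroma and endothelium in the Cdkn2b values was not tested.

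The other Cdkn2b probe, A_55_P1979526 (chr4:88952720-88952779), was at 1.14, 2.08 and 1.28 in IL-10+ HDM cells, 0.54, 1.93 and 1.17 in IL-10+ control cells, 1.18, -2.70 and -2.56 in IL-10- HDM cells, and -0.05, -1.78 and -1.23 in IL-10- control cells. IL-10- HDM array 1 lay among the IL-10+ arrays. Its sort difference, 2.55 (SE 0.67), did not pass the threshold (limma, adjusted p = 0.221), and with that array left out it was 3.18 and did (limma, adjusted p = 0.016). HDM against control mice gave 0.69 in IL-10+ cells and 0.72 in IL-10- cells for the called probe, neither past it (limma, adjusted p = 1 and 0.627).

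**Figure D4:**
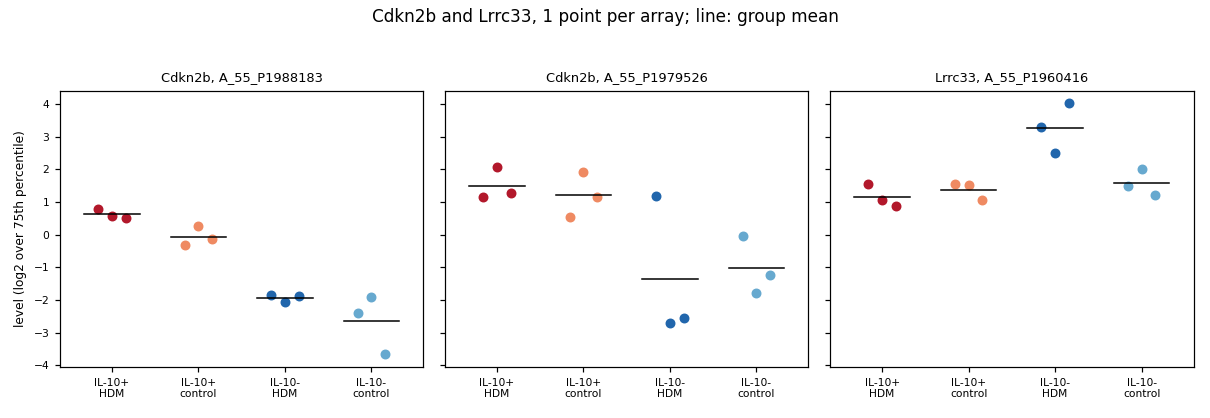
Levels of both Cdkn2b probes and of Lrrc33 on every array, as log2 of the signal over the array's 75th percentile (vertical axis), by group (horizontal axis); points are arrays and lines are means of 3 arrays. For Cdkn2b A_55_P1988183 the IL-10+ arrays run -0.31 to 0.80 and the IL-10- arrays -3.67 to -1.86, and for Lrrc33 the IL-10- HDM arrays, at 2.49 to 4.03, are above the rest.

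The genes whose levels most resembled those of a member were sought over the 12 arrays, among 7431 named genes well above background on all of them, for the 4 members whose brightest probe was. Itgav was closest to Vkorc1l1 (Pearson r = 0.93) and Gna13 (0.92), and Tgfbr2 to Fbxo11 (0.95) and Tex30 (0.95). Tgfb1 was closest to Sdcbp (0.93) and St6galnac6 (0.88), and Furin to Vmn2r62 (0.88) and Six3 (0.82). Without IL-10- HDM array 3 these values were 0.80 to 0.95. The points share their amplification, slide and scaling, and the highest of many correlations is high by selection, so the values are a description.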

How the data were processed

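Signals of all 12 arrays were taken from the deposited scanner files. Per the labels' protocols, mRNA-derived cDNA was amplified by PCR before Cy3 labelling, which can add spread between samples. Per the file headers, Agilent Feature Extraction 10.7.3.1 read arrays of design 028005, annotated on mm9. The deposited intensity values were background-subtracted and detrended per the file headers, and not normalised between arrays. The spot flags are other deposited values, per the file headers. A second deposited table gives each spot's ratio to the median gene spot of its array, as recomputation showed within 0.00077%, and was not used further. Between 47.7% and 62.4% of the 59305 gene spots per array were well above background and 0 were saturated. Arrays give no counts, and the number of arrays limits the precision.

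From these, log2 processed signals minus the array's 75th percentile were fitted by lmFit and eBayes of limma 3.58.1 (R 4.3.3), with 4 group means and 8 residual degrees of freedom, 1 row per probe, with spots of a probe averaged. Probes well above background on at least 3 arrays were kept (37727), less 79 whose spots were all outliers on some array. Benjamini-Hochberg adjustment ran over all 37648 probes in each of 6 comparisons. The fit was checked on simulated data.

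All member probes are named, with Il10. From each pathway list the text names every gene with a called probe, or else the 2 probes with the smallest p. It names the 2 closest genes by Pearson correlation for each member that qualified, and the 2 brightest markers of the cell types quoted. The members and lists were chosen with earlier results of these data known. Titles number the replicates 1 to 3 in every group. Deviations of same-numbered arrays from their group means correlated at -0.116 to 0.123 over all pairs of groups. Between IL-10+ and IL-10- cells they were all above 0, at 0.021 to 0.123 in control mice and 0.022 to 0.062 in HDM mice. The labels do not say that the numbers pair samples, so the main fit did not pair them. These small correlations do not exclude a pairing. Alternatives were other scalings, normexp background correction, filters, 1 probe per gene, slide, replicate number and leaving out each array.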

Additional observations from a re-analysis of the deposited data

How the results depend on the processing

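Under 22 settings limma called 0 member probes in every one of the 6 comparisons in which the setting could be fitted. Of 1563 alternative fold changes of member probes, 119 changed sign, none of them with an unadjusted p under 0.05 in either fit, and the lowest adjusted p was 0.131 (Tgfbr1 A_55_P2137211, IL-10+ against IL-10- in HDM mice, without IL-10- HDM array 1). Calls over all probes were less steady: 129 in the averaged sort contrast (0 to 283 over the settings, 48 to 283 leaving out 1 array), 72 in HDM mice (0 to 382), 6 in control mice (0 to 11), 28 for HDM against control in IL-10- cells (0 to 251), 2 in IL-10+ cells (0 to 4) and 0 for the interaction (0 to 17). With slide as a block they were 0, 0, 6, 0, 1 and 0 in that order. With the replicate number as a block (replicate block) they were 67, 29, 2, 5, 1 and 0, the members stayed at 0, and Cdkn2b A_55_P1988183 had an adjusted p of 0.0376. The numbers were not taken to pair the samples, so a call lost there is not read as a weaker effect. That Cdkn2b probe had 2.26 (limma, adjusted p = 0.111) with arrays scaled to their median and 1.70 (limma, adjusted p = 0.00317) with normexp, and the setting with 1 probe per gene kept the other probe (limma, adjusted p = 0.225). Cdkn2b A_55_P1979526 was called in 1 of 12 fits without 1 array (limma, adjusted p 0.016 to 0.473). The Il10 difference was 6.95 with slide as a block (limma, adjusted p = 0.299). The causes were not tested. Signals near background limit Tgfb2, Tgfb3, Lrrc32 and Tgfbr1, and the probes of Itgb8 and Smad7 give only a bound.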
